A study of Mus musculus with 72 samples.

Results

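The genes Ptprc, Themis and Cx3cr1 were followed through the 5 deposited tables of differential H3K27me1 and H3K27me2 sites in the mouse nucleus accumbens. A site belonged to one of them when it overlapped the gene body or the 1000 bp before the start, in GENCODE gene models on the mm10 build. This rule found 12 sites among the 36113 deposited sites, 2 for Ptprc, 3 for Themis and 7 for Cx3cr1. Only Ptprc and Themis held their sites in their own DNA. All 7 sites counted for Cx3cr1 lay in the genes Wdr48 and Gorasp1, at least 116.6 kb from the receptor gene itself, because a weakly supported transcript stretches the Cx3cr1 model across them. A site was called at an authors' adjusted p below 0.05, and the 12 member sites had values from 5.86e-08 to 0.0066 in the authors' deposited tables. The sites were selected on the authors' tests of these same libraries, so their directions and sizes are described here and not tested again.

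Ptprc encodes CD45, the receptor-type tyrosine phosphatase carried by nearly all white blood cells and, at a lower level, by microglia. Themis encodes a T cell protein of antigen receptor signalling that is needed for T cell development in the thymus. Cx3cr1 encodes the receptor for the neuron-derived chemokine fractalkine and marks microglia, the resident macrophages of the brain. H3K27me1 and H3K27me2 are the mono- and dimethylated states of lysine 27 on histone H3, both made by Polycomb repressive complex 2. H3K27me1 is known to lie along the bodies of transcribed genes, and H3K27me2 covers much of the inactive genome.

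All mice were wildtype males. Susceptible, resilient and control mice came from a chronic social defeat stress cohort, a design in which mice are repeatedly attacked by an aggressor, with 4 libraries per mark and group. A second cohort gave H3K27me1 libraries from mice with early life stress (ELS) plus subthreshold defeat and from standard-reared controls without defeat, with 3 libraries per group. Rearing and defeat both differ between those 2 groups and cannot be told apart. The labels do not say whether each library came from a separate animal, so spreads between libraries may be partly technical. CUT&RUN cuts chromatin with a nuclease tethered to an antibody, and the DNA fragments freed next to the mark are sequenced. The tissue was bulk, so fewer cells of a type and less mark per cell cannot be told apart, and these data do not show which cells carried the mark.

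The sequences below show where the sites fall in transcribed DNA, in the RNA's 5′ to 3′ direction, with capitals for bases of the exon of interest and lower case for the neighbouring exons. They are GENCODE M21 transcripts on GRCm38 (mm10). The Ptprc exon is exon 23 of Ptprc-203, at chr1:138078446-138078595 on the minus strand, and is coding. It is the coding exon inside the H3K27me2 site of susceptible mice.
Ptprc exon 23: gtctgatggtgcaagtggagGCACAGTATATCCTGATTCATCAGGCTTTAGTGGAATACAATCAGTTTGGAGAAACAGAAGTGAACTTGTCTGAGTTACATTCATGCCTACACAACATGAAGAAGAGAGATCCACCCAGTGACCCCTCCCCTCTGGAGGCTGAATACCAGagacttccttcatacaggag
The next is the 3′ end of Cx3cr1-202, the transcript that stretches the Cx3cr1 model. Its last exon has 12 bases, at chr9:119901616-119901627 on the minus strand, and all 30 printed bases are A or G.
Cx3cr1-202 end: aaagaaaaagaaaggaagGAAGGAAGGAAG
Coding exons of Wdr48, on the plus strand, occupy sites that the rule gives to Cx3cr1. Exon 2, at chr9:119902286-119902426, lies in a site of susceptible mice, and exon 16, at chr9:119920557-119920644, lies in the site of resilient mice.
Wdr48 exon 2: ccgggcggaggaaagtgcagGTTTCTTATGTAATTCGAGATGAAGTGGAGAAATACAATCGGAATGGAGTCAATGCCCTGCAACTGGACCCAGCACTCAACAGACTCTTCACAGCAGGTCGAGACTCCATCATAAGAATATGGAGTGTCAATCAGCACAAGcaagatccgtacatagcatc
Wdr48 exon 16: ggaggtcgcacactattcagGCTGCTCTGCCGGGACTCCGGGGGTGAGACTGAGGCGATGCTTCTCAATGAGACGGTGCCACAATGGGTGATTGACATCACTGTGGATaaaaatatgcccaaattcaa

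Depth limits the readings unequally. Per the file headers, the libraries averaged 20.57 to 30.39 reads per 1000-bp bin for H3K27me1 and 10.56 to 40.63 for H3K27me2 in the defeat cohort, and 5 to 7.78 in the ELS cohort. The shallowest H3K27me2 library was control replicate 52, which served in both H3K27me2 comparisons. Values below are normalised read counts, which are reads at a site scaled by the constant of each library, and log2 changes are of the normalised count plus 1, with the SE of a limma fit across the whole table. The files hold no expression data, so the tissue label was not checked against RNA.

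Ptprc carried more H3K27me2 near its 3′ end in both stressed groups than in controls. In susceptible mice the site at chr1:138077101-138078600 held counts of 104, 120, 126 and 123, against 111, 39.7, 72.9 and 67 in control mice. The groups overlapped through 1 control library, replicate 49 at 111, which stood above susceptible replicate 50 at 104. The lowest control value, 39.7, came from the shallow replicate 52 and rested on 16 reads. The log2 change was 0.78 ± 0.23 (SE), 0.53 without replicate 52 and 1.01 without replicate 49.

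In resilient mice the higher site lay 600 bp away, at chr1:138075501-138076500, in an intron. Its counts were 77.8, 76.9, 88.4 and 81.1 in resilient mice, against 59.5, 50.7, 57.9 and 51.2 in control mice. No resilient library fell as low as a control library there. The log2 change was 0.56 ± 0.15 (SE). The 2 sites have no base in common, but their comparisons share the same 4 control libraries, which ranged from 39.7 to 111 in the first and from 50.7 to 59.5 in the second. The sites lie 97.9 and 99.8 kb from the start of a gene of 112.9 kb (RefSeq). No H3K27me1 site was called in Ptprc in any of the 3 H3K27me1 tables. The nearest one after ELS plus defeat lay 167.2 kb from its start, past the 3′ end, and was lower (log2 change -1.19 ± 0.24, SE).

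Themis changed in opposite directions in susceptible and resilient mice, but at different places in its introns. In susceptible mice H3K27me2 was higher at chr10:28714001-28715000, with counts of 83.3, 91.0, 75.4 and 80.5, against 58.1, 39.7, 65.2 and 43.4 in control mice. Every susceptible library stood above every control library under the authors' scaling. The lowest control value, 39.7, again came from the shallow replicate 52 and rested on 16 reads. The log2 change was 0.69 ± 0.18 (SE), and 0.58 without replicate 52. After rescaling by the median ratio over the table's sites, the groups overlapped and the log2 change was 0.40. The site lies 46.1 kb into a gene of 215.5 kb.

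In resilient mice H3K27me2 was lower at chr10:28693501-28694500, 19.5 kb closer to the start. Counts were 86.3, 76.9, 59.5 and 54.4 in resilient mice, against 83.2, 96.6, 114 and 90.7 in control mice. The groups overlapped through resilient replicate 51, at 86.3, and control replicate 49, at 83.2. The log2 change was -0.48 ± 0.18 (SE). Because no site of one table overlaps a site of the other within Themis, susceptible and resilient mice were not compared at a common place, and the difference between their directions was not tested.

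After ELS plus subthreshold defeat, Themis had the site with the largest change of the 12, and also the fewest reads. H3K27me1 at chr10:28774001-28775100, in an intron 106.2 kb from the start, had counts of 16.1, 13.1 and 23.7 in ELS plus defeat mice, against 32.6, 36.9 and 39.2 in standard controls. The groups did not overlap, and the log2 change was -1.04 ± 0.22 (SE). These counts rest on 14, 14 and 22 reads in ELS plus defeat libraries and on 33, 38 and 45 reads in standard control libraries. Both groups were below the IgG background at this site, with enrichments of 0.58 in ELS plus defeat mice and 0.90 in standard controls in the authors' deposited table. This was not particular to Themis, since at least 1 group was above IgG at only 76.9% of the called sites of that table. Median enrichment over those called sites was 1.14 in ELS plus defeat mice and 0.82 in standard controls.

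None of the 12 sites lay in the 1000 bp before the start of a member gene. The nearest sites beyond the 3′ end of Themis were higher for H3K27me2, at chr10:28893901-28895100 in susceptible mice (log2 change 0.40 ± 0.15, SE) and at chr10:28930101-28931800 in resilient mice (0.49 ± 0.16, SE). Resilient mice had a lower site inside Themis and a higher one past its end.

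**Figure D1:**
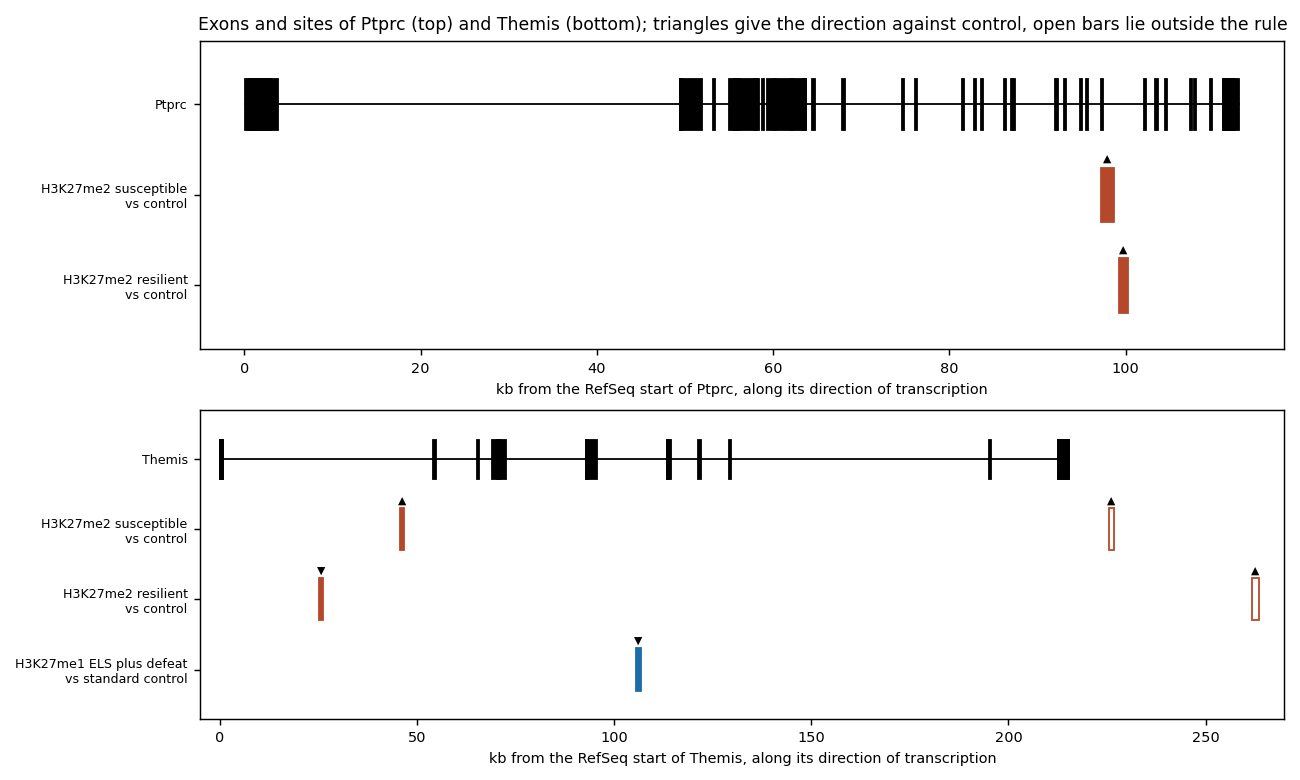
Exons (black) and differential sites (coloured bars, red for H3K27me2 and blue for H3K27me1) of Ptprc and Themis, by distance in kb from the RefSeq start. Triangles point up where the stressed group was higher than control and down where it was lower. The 2 Ptprc sites lie side by side near the 3′ end, and the 3 Themis sites lie apart from each other.

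The Cx3cr1 assignments came from the gene model. GENCODE M21 gives Cx3cr1 a span of 168.3 kb, at chr9:119901616-120069879, whereas RefSeq gives 19.6 kb, at chr9:120048683-120068296. The difference at the 3′ end is made by Cx3cr1-202, a transcript of support level 5, the weakest level of GENCODE. It joins an exon ending inside the RefSeq gene to the 12-base exon printed above across an intron of 147.7 kb. Xirp1, Csrnp1, Ttc21a and Gorasp1 lie whole inside this intron, and Wdr48 overlaps its far end. With RefSeq bounds, or without transcripts of support level 5, Cx3cr1 had 0 called sites in every one of the 5 tables. The called site nearest to the RefSeq start of Cx3cr1 was 52.7 kb upstream, in Slc25a38, a mitochondrial carrier gene, where H3K27me1 was lower in susceptible mice (log2 change -0.48 ± 0.14, SE). Ptprc and Themis had the same bounds with and without such transcripts.

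**Figure D2:**
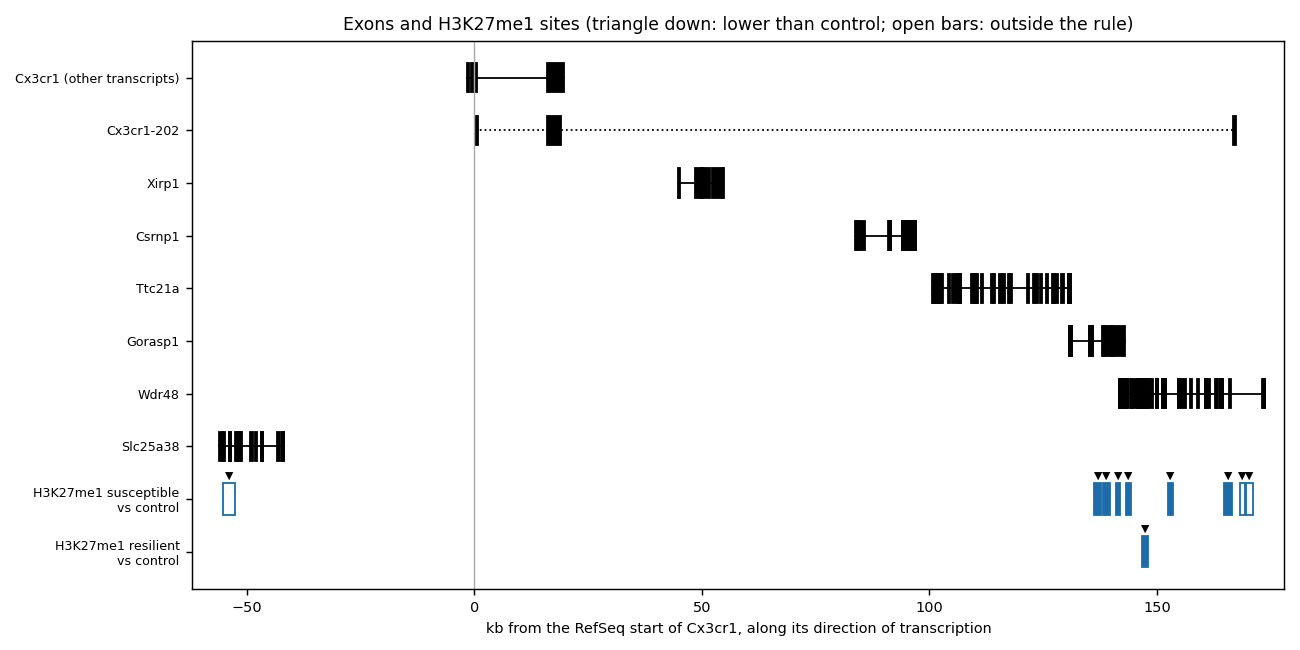
Exons (black) of Cx3cr1 and its neighbours and H3K27me1 sites (blue) by distance in kb from the RefSeq start of Cx3cr1, positive in its direction of transcription. Filled bars are the 7 sites that the rule gives to Cx3cr1, open bars lie outside the rule, and all triangles point down, for lower than control. The 7 filled bars lie over Gorasp1 and Wdr48, between 137.0 and 165.6 kb, and none lies over the Cx3cr1 exons near the start.

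The 7 sites are therefore described by the genes that hold them. Wdr48 encodes a WD-repeat protein that activates the deubiquitinase USP1, and Gorasp1 encodes GRASP65, a protein of Golgi membrane stacking. The genes point towards each other and overlap at their 3′ ends. H3K27me1 was lower at 6 of these sites in susceptible mice and at 1 in resilient mice, and none was higher. H3K27me2 had no called site in either gene, and neither had H3K27me1 after ELS plus defeat.

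The deepest site, in an intron of Gorasp1 at chr9:119930501-119932100, held counts of 238, 193, 249 and 229 in susceptible mice, against 295, 253, 315 and 293 in control mice. The groups did not overlap, although the highest susceptible library, at 249, came close to the lowest control library, at 253. The log2 change was -0.35 ± 0.14 (SE). Next to it, at chr9:119928701-119930100 over coding exons of Gorasp1, counts were 193, 154, 212 and 186 in susceptible mice, against 223, 213, 236 and 223 in control mice. The groups nearly touched, at 212 for the highest susceptible and 213 for the lowest control library, and the log2 change was -0.27 ± 0.14 (SE).

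In Wdr48 the most distant site from the receptor gene, chr9:119901801-119903500 over coding exon 2, had counts of 70.1, 102, 138 and 117 in susceptible mice, against 177, 129, 146 and 143 in control mice. Susceptible replicate 32, at 138, stood above control replicate 28, at 129. The log2 change was -0.51 ± 0.17 (SE) and -0.32 without susceptible replicate 26. The intronic site chr9:119914801-119915900 had counts of 140, 132, 119 and 123 in susceptible mice, against 176, 141, 186 and 144 in control mice, with a log2 change of -0.32 ± 0.14 (SE). There the highest susceptible library, at 140.28, stood just below the lowest control library, at 140.56.

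The remaining sites of susceptible mice overlapped between groups. Over Wdr48 coding exons at chr9:119924001-119925100, counts ran from 73.1 to 111 in susceptible mice and from 99.1 to 143 in control mice. The log2 change there was -0.37 ± 0.15 (SE), and -0.24 without susceptible replicate 26. Where the last exons of Wdr48 and Gorasp1 meet, at chr9:119926401-119927400, counts ran from 53.3 to 123 in susceptible mice and from 95.6 to 158 in control mice. That log2 change was -0.44 ± 0.19 (SE), and -0.20 without susceptible replicate 29, the lowest library.

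In resilient mice the site over Wdr48 exon 16, chr9:119920301-119921700, had counts of 162, 160, 134 and 144, against 207, 173, 205 and 174 in control mice. The groups did not overlap, and the log2 change was -0.34 ± 0.14 (SE). No called site of susceptible mice overlaps it. The comparisons with susceptible and with resilient mice use the same 4 control libraries. Beyond the end of the long Cx3cr1 model, 2 further sites of susceptible mice lay in Wdr48, also lower, at chr9:119897201-119898800 (log2 change -0.36 ± 0.14, SE) and chr9:119899001-119900100 (-0.48 ± 0.16, SE). These are the sites just outside the rule, and their sizes fall within the range of those inside it.

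**Figure D3:**
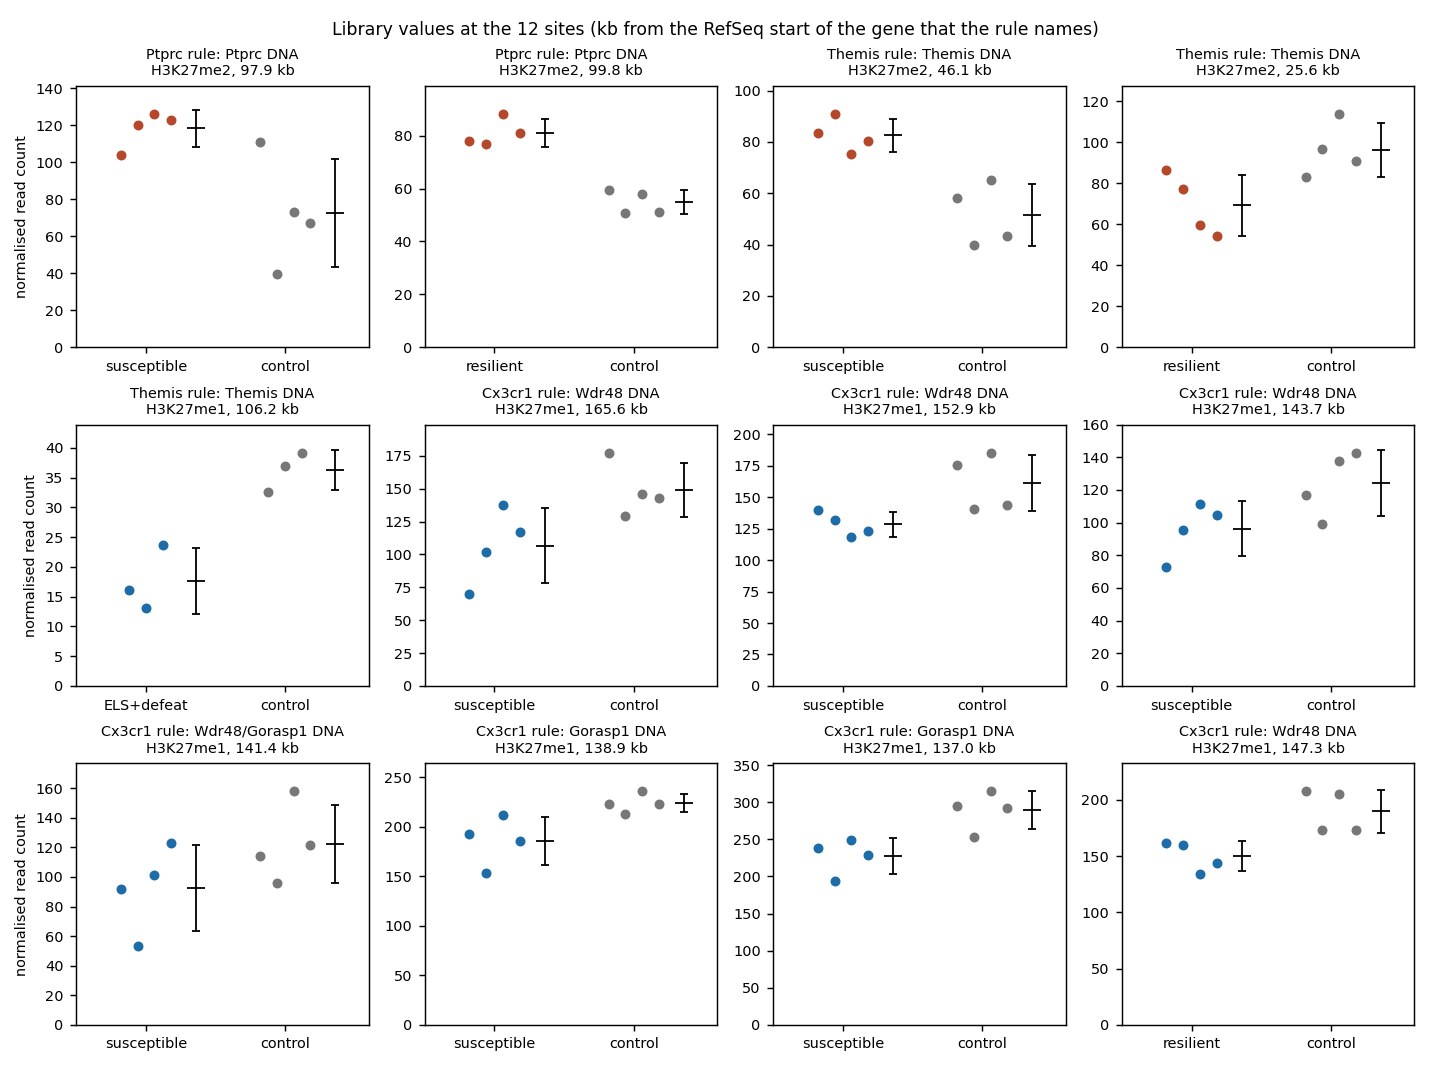
Normalised read count of every library at the 12 sites, stressed group in colour (red H3K27me2, blue H3K27me1) and control in grey, with mean and SD beside each group. Panel titles give the gene chosen by the rule, the gene whose DNA holds the site, the mark and the distance from the RefSeq start. At 7 of the 12 sites the groups do not overlap under the authors' scaling.

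The tables themselves give the background for these counts. Called sites with groups that do not overlap made up 52.8% of those for H3K27me1 in susceptible mice, where 3 of 6 member sites did so, and 54.7% in resilient mice, where the 1 member site did. For H3K27me2 the shares were 57% in susceptible and 58.6% in resilient mice, with 1 of 2 member sites in each. After ELS plus defeat 99% of called sites had groups apart, as did the Themis site. Lower sites were 49.7% of the called H3K27me1 sites in susceptible mice, 48.3% in resilient mice and 33% after ELS plus defeat. By gene, 2605 of the 4354 genes with a called H3K27me1 site in susceptible mice had only lower sites, and 1024 only higher. In resilient mice 1527 of 3230 such genes had only lower sites, and 1005 only higher. Higher sites were 69.4% of the called H3K27me2 sites in susceptible mice and 79.5% in resilient mice, where lower sites such as that of Themis were 20.5%. Since the rule used these contrasts, nothing is read from the members' counts.

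Having a called site at all was common for H3K27me1 and rare for H3K27me2. Of 21951 protein-coding genes, 19.8% had a called H3K27me1 site in susceptible mice, 14.7% in resilient mice and 13.5% after ELS plus defeat, by the same overlap rule. For H3K27me2 the shares were 0.765% in susceptible and 1.2% in resilient mice. Ptprc and Themis belonged to the 168 genes with a called H3K27me2 site in susceptible mice and to the 263 in resilient mice. Within their tables the changes at the susceptible sites of Ptprc and Themis were larger than 99.4% and 99% of the called higher H3K27me2 sites. These ranks use the authors' log2 change and include shallow control replicate 52, which held the lowest control value at each site. Without it the limma log2 change was 0.53 at Ptprc and 0.58 at Themis, but the ranks were not computed again. The median of the authors' log2 change over higher sites of that table was 0.48 with all libraries. The resilient sites were larger than 83% of higher sites for Ptprc and 49.1% of lower sites for Themis. At the Wdr48 and Gorasp1 sites the change exceeded 1.49% to 73.1% of the called lower H3K27me1 sites of their table, and at all but 1 of the 7 it exceeded no more than 30.6%.

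Enrichment over IgG, the authors' ratio of a group's signal to its antibody background, is given for each site. It contains the group signal on which the sites were selected, so it is no independent measure. In the authors' deposited table the Ptprc sites were enriched 3.13 times in susceptible mice and 1.81 times in their controls, and 3.32 times in resilient mice and 1.6 times in their controls. The Themis H3K27me2 sites had 2.37 in susceptible mice and 1.59 in controls, and 2.19 in resilient mice and 3.69 in controls, per the same deposited tables. At these 4 sites the enrichment moved the same way as the count, as it did at 93.7% of all called H3K27me2 sites in susceptible and 94.9% in resilient mice.

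The Wdr48 and Gorasp1 sites were above IgG in every group. At least 1 group was above IgG at 99.6% of called H3K27me1 sites in susceptible and 99.5% in resilient mice. By the higher enrichment of the 2 groups, the Wdr48 exon 2 site exceeded only 2% of called sites of its table. That site had the largest change of the 7. The others exceeded 34.4% to 94.7%. The deposited enrichment ran from 1.63 to 5.31 in susceptible mice and from 1.76 to 5.92 in controls, and was 4.49 in resilient mice and 4.55 in controls. At 5 of the 7 sites the enrichments of the groups differed less, on the log2 scale, than their counts did. In susceptible mice the log2 ratios of the enrichments were -0.11, -0.32, -0.11 and -0.10 at 4 of these. The authors' log2 changes in count there were -0.48, -0.37, -0.40 and -0.35. At the site of resilient mice the 2 values were -0.02 and -0.34. How often the enrichments differed less over all called sites was not counted. At the Gorasp1 site 138.9 kb from the Cx3cr1 start they differed more, 3.91 in susceptible mice and 5.92 in controls. At the intronic Wdr48 site chr9:119914801-119915900 the enrichment was 5.03 in susceptible mice and 3.97 in controls, the opposite of the count. Among all called H3K27me1 sites of susceptible mice, 93.1% had enrichment and count moving the same way. Since enrichment is signal over background, the lower count with higher enrichment at that intronic Wdr48 site implies a lower background value in susceptible mice. The IgG libraries are not given per site, so the spread of that background between libraries was not tested.

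**Figure D4:**
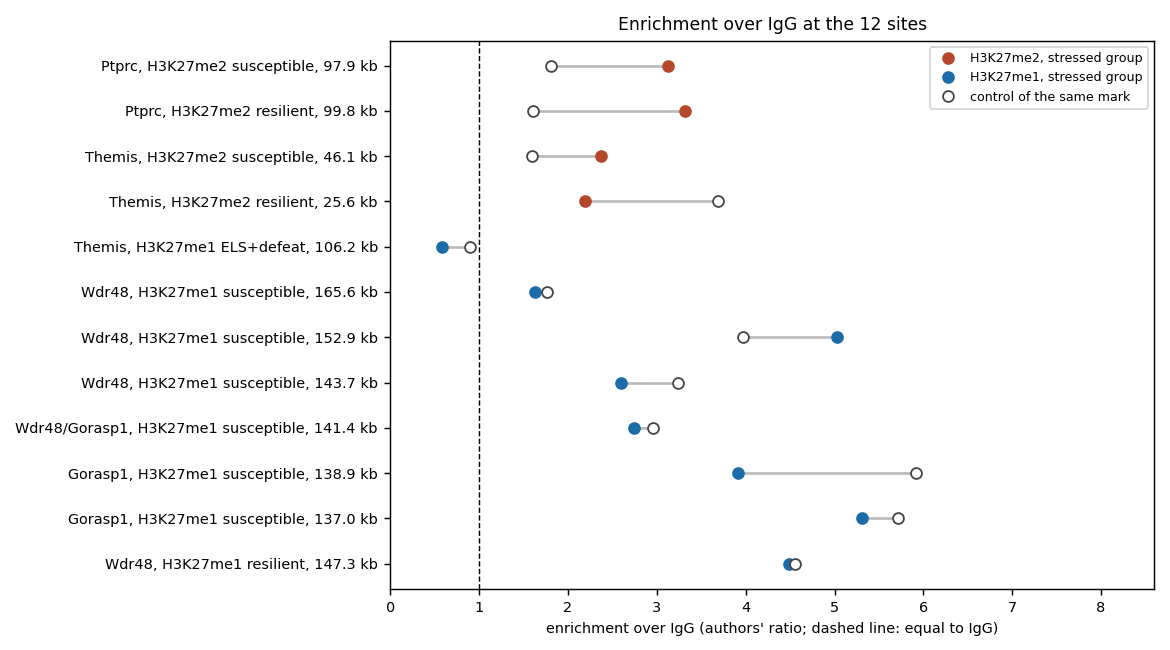
Enrichment over IgG at the 12 sites, as deposited, for the stressed group (filled, red H3K27me2 and blue H3K27me1) and control (open), with a dashed line where signal equals IgG. Labels give the gene that holds the site. The Themis H3K27me1 site lies below 1 in both groups, and the Wdr48 site at 152.9 kb is the one where the enrichment goes against the count.

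Every one of the 12 changes kept its direction when any 1 library was left out. At the 7 sites whose groups do not overlap, no other outcome was possible. All 12 sites had been selected on these same libraries, and no such count was made over all called sites. A G-test rebuilt from the remaining libraries, in the defeat tables, stayed past the authors' p limit of 0.0001 in all 8 such cases at the susceptible H3K27me2 sites of Ptprc and Themis, and at the intronic Gorasp1 site. The resilient Ptprc site stayed past it in 7 of 8 cases, failing without resilient replicate 57. The resilient Themis site stayed past it in 4 of 8, failing without resilient replicate 57 or 60 or control replicate 52 or 55. The Wdr48 exon 2 site stayed past it in 6 of 8 cases, failing without susceptible replicate 26 or control replicate 25. The site where Wdr48 and Gorasp1 meet stayed past it in 4 of 8, failing without susceptible replicate 26 or 29 or control replicate 31 or 34. The Wdr48 site of resilient mice also did so in 4 of 8, failing without resilient replicate 33 or 36 or control replicate 25 or 31. The other 3 sites of susceptible mice in these genes were not past the limit with all libraries, and their deposited p-values were 0.000107 to 0.000186, per the authors' deposited table. This test pools the reads of a group and does not use the spread between libraries.

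Sizes depended on the scaling for H3K27me2 and for the ELS cohort. Rescaling libraries by the median ratio over a table's deposited sites moved the median log2 change of all its sites by -0.29 in the susceptible and -0.39 in the resilient H3K27me2 table and by -0.63 in the ELS table. Relative to that, the Ptprc changes became 0.49 in susceptible and 0.16 in resilient mice. The Themis changes became 0.40 in susceptible mice, -0.87 in resilient mice and -1.65 after ELS plus defeat. No direction turned round, but the resilient Ptprc change of 0.16 stands beside an SE of 0.15 under the authors' scaling. The median over all sites of that table was 0.10 after rescaling. The Wdr48 and Gorasp1 changes moved by no more than 0.02.

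**Figure D5:**
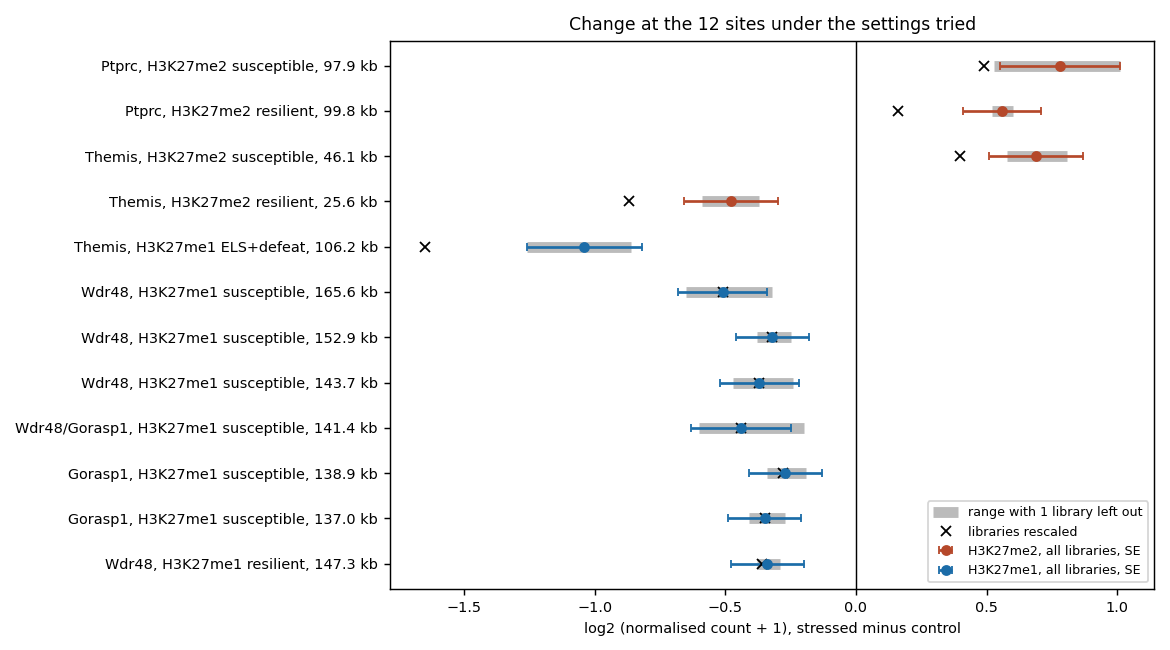
Log2 change, stressed minus control, at the 12 sites, with all libraries (points, SE bars, red H3K27me2 and blue H3K27me1), the range with 1 library left out (grey) and the value after rescaling (crosses). No grey bar or cross reaches 0, and the crosses shift to the left for H3K27me2 and for the ELS site.

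Immune genes around the members were counted by the same overlap rule. In 5 lists with 126 genes of microglia, antigen receptor signalling, chemokine receptors, lymphocyte development and border macrophages, 123 were not members. Of these, 4 (3.25%) had a called H3K27me1 site in susceptible mice, 6 (4.88%) in resilient mice and 12 (9.76%) after ELS plus defeat, against 19.8%, 14.7% and 13.5% of all genes in the same tables. For H3K27me2, 0 of the 123 had a site in either table, against 0.765% of all genes in susceptible and 1.2% in resilient mice, shares too low for a list of this size to be read against them. With the members, which were chosen with earlier results known, the counts for H3K27me2 were 2 of 126 (1.59%) in each table. Listed genes had a median length of 21.1 kb, against 17.4 kb for all genes and 46.2 to 106 kb for genes with a called site, and the part of length in these shares was not tested.

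In the antigen receptor list, of 39 genes, the kinase Fyn had 3 higher and 2 lower H3K27me1 sites in susceptible mice and 1 higher site in resilient mice. Its site with the smallest adjusted p in susceptible mice averaged 102 ± 8.88 (SD, n = 4), against 70.03 ± 11.2 (SD, n = 4) in controls. After ELS plus defeat Fyn had 2 higher sites, the leading one at 75.2 ± 10.4 against 42.6 ± 5.02 in standard controls (SD, n = 3 each). Vav3 had 2 higher sites in susceptible mice, the leading one at 259 ± 23.7 against 189 ± 25.03 in controls (SD, n = 4 each). Grb2, an adaptor protein, had 2 lower sites in susceptible mice, the leading one at 66.96 ± 11.35 against 93.96 ± 7.84 in controls (SD, n = 4 each). In resilient mice Plcg1, a phospholipase downstream of the receptor, was lower, at 70.2 ± 9.06 against 98.5 ± 18.3 in controls (SD, n = 4 each). Lat, the T cell linker adaptor, was also lower in resilient mice, at 85.8 ± 14.9 against 115 ± 15.2 in controls (SD, n = 4 each), with overlapping libraries. Several of these genes, Fyn among them, are also active in neurons. The list's H3K27me1 sites went both ways, 5 higher and 4 lower in susceptible mice and 2 higher and 3 lower in resilient mice. The sign of their median log2 change, 0.44 in susceptible and -0.40 in resilient mice, therefore hangs on 1 site, and over all called H3K27me1 sites the medians were 0.26 and 0.30.

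Ikzf2, which encodes the lymphocyte transcription factor Helios, was the 1 gene of the 18 development factors with called sites in the defeat cohort. That is 5.56% of the list, against 19.8% of all genes for H3K27me1 in susceptible and 14.7% in resilient mice. Ikzf2 is described at its H3K27me1 sites. It was lower at a site in susceptible mice, 61.7 ± 7.50 against 89.7 ± 13.2 in controls, and higher at another in resilient mice, 80.2 ± 8.51 against 55.9 ± 11.6 in controls (SD, n = 4 each). Both had overlapping libraries. After ELS plus defeat this list held 4 genes with H3K27me1 sites (22.2%), against 13.5% of all genes. Tox, a regulator of T cell differentiation, had 4 higher sites, the leading one at 60.3 ± 4.74 against 33.1 ± 3.90 in standard controls (SD, n = 3 each). Ebf1 is a B cell factor that also marks striatal neurons in development. It had 1 lower site, at 13.2 ± 4.99 against 29.97 ± 4.59 in standard controls (SD, n = 3 each). Deposited enrichment over IgG at the Ebf1 site was 0.64 in ELS plus defeat mice and 1.06 in standard controls. At the leading Tox site it was 1.11 and 0.77.

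Microglial and chemokine genes other than Cx3cr1 had no called site in the defeat cohort. Of 35 genes of microglia and fractalkine, Cx3cr1 alone (2.86%) had any there, through the sites in Wdr48 and Gorasp1. Of all genes, 19.8% had an H3K27me1 site in susceptible and 14.7% in resilient mice, and 0.765% and 1.2% an H3K27me2 site. After ELS plus defeat, 5.71% of this list had an H3K27me1 site, against 13.5% of all genes. The shares then were 4.35% of the chemokine receptors and 8.33% of the border macrophage list. For listed genes other than the members, it was not examined whether a site also lies in another gene. After ELS plus defeat, H3K27me1 was lower at P2ry12, the microglial ADP receptor, at 43.4 ± 10.2 against 74.3 ± 6.77 in standard controls, and higher at 2 sites of P2rx7, an ATP-gated channel (leading site 41.9 ± 2.51 against 22.4 ± 3.85 in standard controls; SD, n = 3 each). Of 23 chemokine receptors, Ackr3, a scavenging receptor, was the other one with a site, higher after ELS plus defeat at 68.7 ± 19.6 against 30.4 ± 8 in standard controls (SD, n = 3 each), below IgG in both groups. F13a1 was the 1 gene of 12 border macrophage and antigen presentation genes with a site. It was lower after ELS plus defeat, at 12.4 ± 3.62 against 27.2 ± 2.2 in standard controls (SD, n = 3 each). Deposited enrichment over IgG at the F13a1 site was 0.35 in ELS plus defeat mice and 1.08 in standard controls.

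Marker lists of other cell types had 3 to 8 genes each, too few to set against the shares of all genes with a called site, which ran from 0.765% to 19.8% over the tables. Of 8 T cell markers Themis was the 1 with a called site in any table, and the antigen receptor subunits and coreceptors had none. Of 4 B cell markers none had one, and likewise none of 8 markers of medium spiny neurons, the main neurons of this region, or of 3 vascular markers. Astrocyte and oligodendrocyte lists of 4 genes each had a called site for Slc1a2 and Mbp, after ELS plus defeat only.

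Genes with called sites in the same tables and the same directions were counted for each member. Ptprc shared its pattern with 18 other protein-coding genes, and Cd36, Tacr3 and Dsg1b were closest in number of sites and then in length, with 2 sites each. No other gene had the pattern of Themis. It needs a called H3K27me2 site in both comparisons, which only 0.765% of genes had in susceptible and 1.2% in resilient mice. Part of it is the ELS site, which was below IgG in both groups. The pattern that the long model gives to Cx3cr1 was shared by 678 genes, and Mtor, Glg1 and Cbl were closest, with 7 sites each.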

How the data were processed

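The series has 72 CUT&RUN samples of mouse nucleus accumbens in 21 groups, for H3K27me1, H3K27me2 or IgG, and the 5 deposited tables use 30 mark libraries in 8 groups. Per the submitters' processing notes, MACS2 2.2.6, SAMtools 1.10, Bowtie2 2.4.1, cutadapt 2.10 and Trim Galore 0.6.5 were used on mm10, with no role or order given. Per the file headers, diffReps 1.55.4 tested windows of 1000 bp in steps of 100 bp at a p limit of 0.0001, by a G-test in the 4 defeat tables and a negative binomial test in the ELS table.

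The deposited counts per library are reads divided by a library constant, and the authors' group mean of them is a signal. The deposited enrichment is a ratio over IgG, the deposited log2 change is that of group means, and the deposited p-value is adjusted by the authors (Benjamini-Hochberg). Sites with an adjusted p below 0.05 were called. Multiplying by the constants, refined within their rounding, gave whole reads (within 0.1) for 99.9% to 100% of values.

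Log2 changes and SE came from limma 3.58.1 (R 4.3.3) on log2(normalised count + 1) over all sites of a table, checked on simulated data. As the tables hold only sites kept by the authors' search, some with a p above its limit, the moderation of the spread was learned from selected sites. Gene models were GENCODE M21 and, for comparison, RefSeq (GRCm38.p6). The text names each member site, per table up to 4 other listed genes with the smallest authors' adjusted p, up to 3 genes most like each member, and genes at or next to a member's site. P2ry12, P2rx7 and F13a1 were named after their values were seen, as the few members of their lists with a site. Members and lists were chosen with earlier results of these data known. Intervals of counting error are not given, since reads without molecular identifiers are not independent molecules. Alternatives covered the overlap rule, p threshold, filters, pseudocount, scaling, gene models and leaving out each library.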

Additional observations from a re-analysis of the deposited data

Results flagged for a closer look

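At the member sites of the defeat cohort, 22 groups of 4 libraries were examined for a library standing apart from the other 3, and 0 had one by Dixon's criterion. Chance alone would flag about 1 in 20 such groups. Groups of 3 libraries in the ELS cohort were not examined.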

How the results depend on the processing

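Counts of member sites are given in the order H3K27me1 susceptible, H3K27me1 resilient, H3K27me2 susceptible, H3K27me2 resilient and ELS plus defeat, and were 6, 1, 2, 2 and 1. With RefSeq bounds or without transcripts of support level 5, both chosen after seeing the data, the H3K27me1 counts in susceptible and resilient mice were 0 and 0. An adjusted p below 0.001 left 2 for H3K27me1 in susceptible mice, 0 in resilient mice and 0 for ELS plus defeat. Requiring enrichment over IgG above 1, or a mean of at least 50 normalised reads, left 0 for ELS plus defeat. The G-test rebuilt from all libraries at the p limit left 3 for H3K27me1 in susceptible mice. Without 1 library each, the rebuilt test left 2 to 5 for H3K27me1 in susceptible mice and 0 to 1 in resilient mice. For H3K27me2 it left 2 in susceptible mice and 0 to 2 in resilient mice. The direction stayed at the 1 ELS site, where it could not turn because the groups do not overlap. Rescaling changed the log2 change at Themis to 0.40 in susceptible mice, -0.87 in resilient mice and -1.65 after ELS plus defeat, and at the resilient Ptprc site to 0.16. That shift follows from its construction, which uses sites that were mostly higher. In each library it sets to 0 the median log ratio of a site's count to its mean over libraries. The median log2 change over all sites was then 0.17 for H3K27me2 in susceptible mice, 0.10 in resilient mice and 0.22 after ELS plus defeat. The other settings, 138 of 142 runs of the log2 changes, moved them by less than the spread between libraries, and 0 of 142 reversed one. Sites with groups apart fell to 0 under rescaling for H3K27me2 in susceptible mice, where the site lost was that of Themis. Without 1 library they ran from 3 to 5 of 6 for H3K27me1 in susceptible mice. In each H3K27me2 table they ran from 1 to 2 of 2. Leaving out a library could only keep or raise these counts. The planned edgeR fit on recovered reads was not run. No paired analysis was possible because the groups share no replicate numbers. Depth limits the ELS site most, with 14 to 45 reads per library.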

Other observations

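Transcripts of support level 5 also set the reach of other genes. Of 21190 protein-coding genes with bounds both with and without them, 63, Cx3cr1 included, are lengthened by at least the 148.7 kb of Cx3cr1, and 17798 are not lengthened at all. Without these transcripts, 79 of 4283 genes with a called H3K27me1 site in susceptible mice lost every site (1.84%), as did 53 of 3172 in resilient mice (1.67%) and 76 of 2889 after ELS plus defeat (2.63%). For H3K27me2 the losses were 9 of 143 genes in susceptible mice (6.29%) and 17 of 230 in resilient mice (7.39%).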
